A study of Homo sapiens with 11 samples.

Results

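The H3K36me3 domains described here are the enriched intervals that were called for 1 ChIP-seq library of cells without mdig (KO) and 1 library of cells with normal mdig (WT). All intervals listed for these 2 libraries on chromosomes 1 to 22 and X were taken, 17800 in KO and 17507 in WT. Together they are 35307 of the 229591 intervals in the 10 ChIP lists of the series. The cells were MDA-MB-231, a human triple-negative breast cancer line. Per the labels CRISPR-Cas9 was used to make the KO cells and the WT cells alike, both grew in medium with Blasticidin, the KO cells made no mdig protein, and the WT cells made it at a normal level. Whether either line is a single clone is not given in the sources used here. In all, the study used 5 antibodies on each genotype, against H3K4me3, H3K9me3, H3K36me3, H4K20me3 and mdig itself (named MINA in the labels). There was 1 library per antibody and genotype, so none of the values below has a replicate and none was tested. The intervals given for shares are 95% Wilson confidence intervals, which cover counting error only. The read depth is unknown, so a difference in depth or in enrichment between the libraries and a difference in the mark cannot be told apart.

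H3K36me3 is the trimethylated form of lysine 36 of histone H3. In mammals the methyltransferase SETD2 lays it down while it travels with elongating RNA polymerase II, so the mark typically covers transcribed gene bodies, is weak at the promoter and grows towards the end of the gene. Demethylases of the KDM4 family can remove it, and readers such as the DNA methyltransferase DNMT3B and the LEDGF protein bind it. H3K4me3, by contrast, sits at active promoters, so a gene body often shows H3K4me3 at one end of its H3K36me3. Mdig (MINA53, RIOX2) belongs to the JmjC family of oxygenases, of which some members demethylate histones.

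No annotation of hg19, the build of the files, was at hand, so the label "gene bodies" was not checked against genes and no gene is named. The H3K4me3 lists gave a coarse check. In KO 32.8% of the H3K36me3 domains had H3K4me3 within 2 kb of one of their ends and not of the other, and in WT 32.0% had it. A further 12.1% of KO and 13.0% of WT domains had H3K4me3 at both ends. H3K4me3 lay within the domain but at neither end in 0.961% of KO and 0.954% of WT domains. The remaining 54.2% of KO and 54.1% of WT domains had none. Domains with H3K4me3 at one end were wider, with a median of 17.0 kb in KO and 17.2 kb in WT, than those with none, with a median of 8.0 kb in KO and 8.6 kb in WT. Most domains of either list thus had no promoter mark in or beside them.

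In widths and spacing the lists of KO and WT were nearly alike. KO domains had a median width of 11 kb, with quartiles of 5.8 and 23 kb, and WT domains had a median of 11.4 kb, with quartiles of 6.2 and 23.2 kb. They covered 328.8 Mb in KO and 327.9 Mb in WT, a ratio of 1.00. Domains of at least 50 kb numbered 1308 in KO and 1310 in WT and held 30.1% of the covered length in KO and 29.9% in WT. Domains of at least 100 kb numbered 178 in KO and 169 in WT. At the small end, KO had 3314 domains under 5 kb and WT had 2968, and the 5th percentile of width was 2.8 kb in KO and 3.0 kb in WT.

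The gaps between neighbouring domains had a median of 9.4 kb in both lists. The files allow no gap under 800 bp. Gaps of exactly 800 bp numbered 2228 in KO and 2258 in WT, and gaps under 5 kb numbered 7206 in KO (40.5% of gaps) and 7010 in WT (40.1%). Many domains of either genotype therefore lay in runs with short breaks between them. Gaps over 100 kb made up 19.0% of KO gaps and 19.5% of WT gaps.

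**Figure D1:**
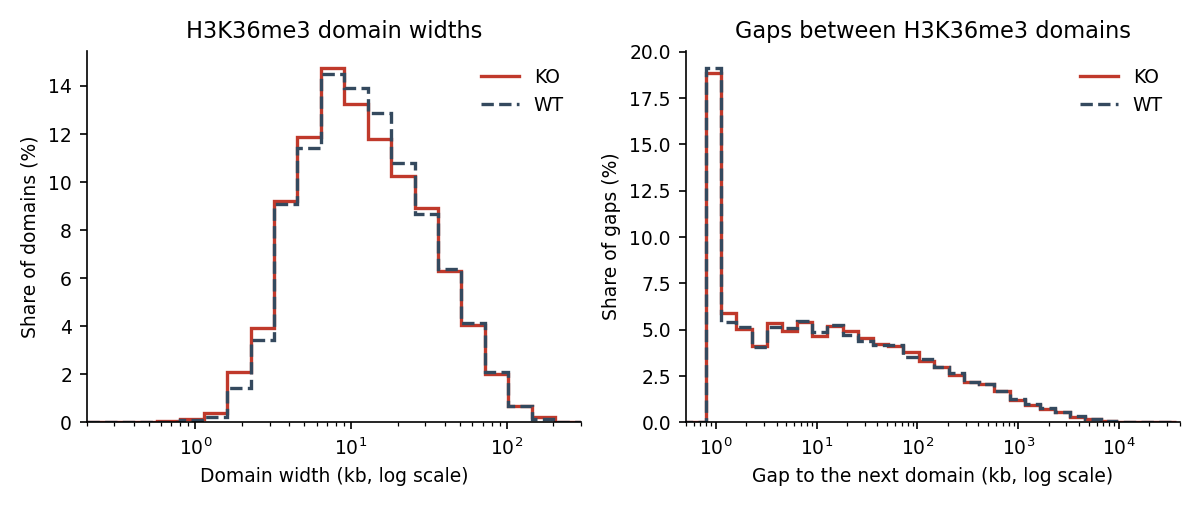
Shares of domains by width (left, % of domains in each list) and of gaps by length (right, % of gaps in each list), both on log axes in kb, for the KO list (solid red) and the WT list (dashed dark). The lines nearly coincide, with median widths of 11 kb in KO and 11.4 kb in WT and a median gap of 9.4 kb in both. The tall step at the left of the gap plot holds the shortest gaps that the lists allow, from 0.8 kb.

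The widest domains were found in both genotypes. The widest KO domain, of 245.0 kb on chromosome 8 from 141661001 to 141906000 (hg19, as are all positions here), matched 1 WT domain, which was also the widest of its list at 241.6 kb. Neither held an interval of another antibody. The next widest KO domain, of 224.0 kb on chromosome 10 from 105368001 to 105592000, lay over 4 WT domains, the widest of 132.8 kb. The third, of 219.2 kb on chromosome 8 from 48674601 to 48893800, lay over 2 WT domains. Of the next widest WT domains, one of 241.0 kb on chromosome 2 from 36583401 to 36824400 was divided into 6 KO domains, and one of 209.0 kb on chromosome 12 from 120105801 to 120314800 lay within 1 KO domain of 209.4 kb. A domain could thus be whole in one list and in pieces in the other while nearly all of its length was covered in both. KO domains covered 96.0% of the WT domain on chromosome 2, and WT domains covered 98.8% of the KO domain on chromosome 10.

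To follow single domains, KO and WT domains that overlapped by at least 1 bp were put into groups. One to one pairs, in which a KO domain met a single WT domain and the reverse, numbered 8613 and made up 48.4% of KO and 49.2% of WT domains. In 1451 groups 1 WT domain lay over 2 or more KO domains (3336 in all); these are called split in KO. In 1351 groups 1 KO domain lay over 2 or more WT domains (3055 in all); these are called joined in KO. Another 773 groups held several domains of each list. No WT domain met 2586 of the KO domains, which is 14.5% of that list, and no KO domain met 2545 of the WT domains, which is again 14.5%. Splits were slightly more than joins, and domains found in a single genotype were about as many in KO as in WT.

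Most divided domains had a single break. Of the split WT domains 78.4% fell into 2 KO domains and 15.9% into 3, and of the KO domains that joined WT domains 82.5% held 2 and 12.1% held 3. The largest piece held a median of 64.5% of the summed pieces of a split domain and 66.1% of those of a joined domain. The pieces together reached a median of 0.936 of the whole width in splits and 0.932 in joins. WT domains had 3026 breaks, that is, KO gaps that lay wholly inside a WT domain, with a median length of 1.0 kb. KO domains had 2774, also with a median of 1.0 kb. Of the KO gaps inside WT domains 43.0% had the smallest length that the lists allow, 800 bp, and of the WT gaps inside KO domains 46.8% had it. Under 2 kb were 78.9% of these KO gaps and 81.1% of these WT gaps, so that most breaks took out a few 200-bp windows. Breaks were fewer towards the ends of domains, which the definition partly fixes: a gap that reached an end was not counted as a break. When each domain was cut into 5 equal parts, 25% of the KO gaps lay in the middle part of their WT domain and 29.6% in both outer parts together. Of the WT gaps 23.9% lay in the middle part of their KO domain and 29.4% in both outer parts together.

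The WT domain split into most pieces spanned 151.8 kb on chromosome 7 from 92265401 to 92417200. Here 9 KO domains of up to 31.0 kb covered 93.8% of it. The next was a WT domain of 89.0 kb on chromosome 2 from 188329201 to 188418200, of which 8 KO domains covered 81.1%. WT domains on chromosome 12 from 78505001 to 78607000 and on chromosome 18 from 39573201 to 39664000 were each in 7 pieces, which covered 68.0% and 64.5% of them, and the domain of 241.0 kb on chromosome 2 named above followed with 6. The KO domain that joined most WT domains spanned 68.8 kb on chromosome X from 123169001 to 123237800, and 10 WT domains covered 83.7% of it. KO domains on chromosome 7 from 47312801 to 47492800 (180.0 kb) and on chromosome 15 from 44829801 to 44957000 (127.2 kb) joined 8 WT domains each. Another pair on chromosome 15, from 44118401 to 44223600 and from 43241601 to 43331000, joined 6 each. All 5 of the joining domains lay in the stretches of chromosomes described below, and none of the 5 split domains did.

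**Figure D2:**
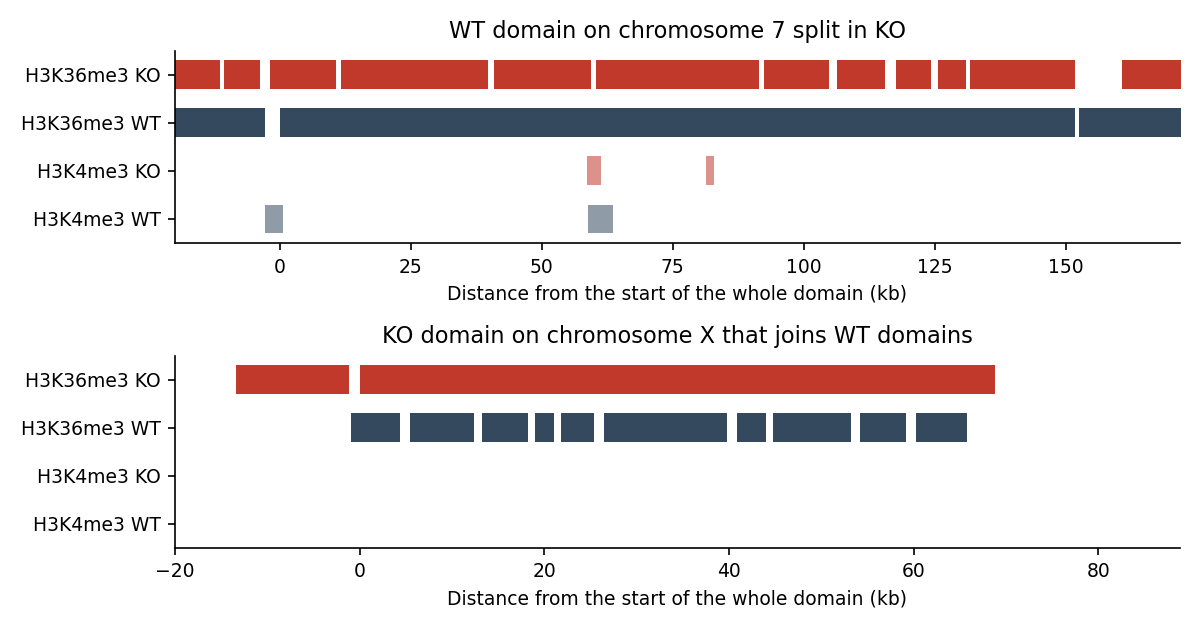
Maps to scale of the WT domain split into most KO domains (top, chromosome 7) and of the KO domain that joins most WT domains (bottom, chromosome X), with 20 kb on either side. Bars show H3K36me3 and H3K4me3 domains of KO (red) and WT (dark) by distance in kb from the start of the whole domain. The 9 KO pieces in the top map and the 10 WT pieces in the bottom map are parted by short gaps.

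How a domain was matched went with its width. Of the domains under 5 kb 33.2% in KO and 35.0% in WT met no domain of the other genotype. For domains of 20 to 50 kb these shares were 2.13% in KO and 1.92% in WT. At 100 kb or more no domain was unmatched in either list. The share that met 2 or more domains of the other list ran the other way. It was 1.30% in KO and 1.04% in WT under 5 kb, and at 100 kb or more it was 53.4% in KO (interval 46.0 to 60.6%) and 48.5% in WT (41.1 to 56.0%). The intervals of KO and WT overlap there. Narrow domains were thus more often unmatched, and wide domains more often lay over several domains. A wider domain has more room to meet others at an overlap of 1 bp, so this order is partly built into the measure. How large that part is was not tested.

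**Figure D3:**
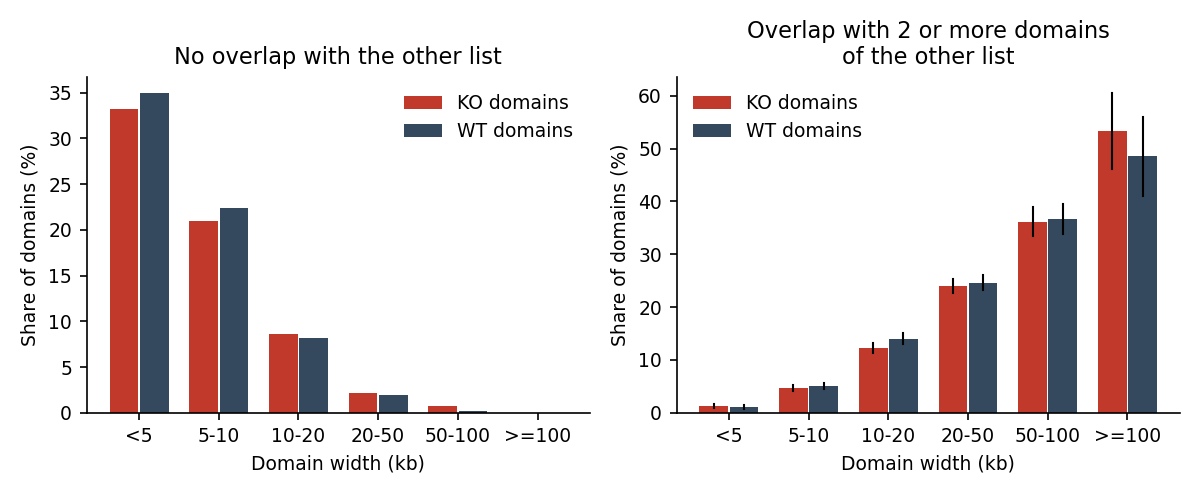
Shares of KO domains (red, left bar of each pair) and WT domains (dark) that met no domain of the other list (left) or at least 2 of them (right), by domain width in kb. Black lines are 95% Wilson intervals. Unmatched shares drop from 33.2% in KO and 35.0% in WT under 5 kb to 0 at 100 kb or more, and shares over several domains reach 53.4% in KO and 48.5% in WT.

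Domains found in 1 genotype had a median width of 5.6 kb in either list, against 12.4 kb in KO and 12.6 kb in WT for one to one pairs. Their nearest domain of the other genotype was a median of 16.4 kb away for KO-only and 16.0 kb for WT-only domains. It was within 5 kb for 27.6% of KO-only and 26.5% of WT-only domains. The groups differed in the promoter mark, and in the other antibodies too. Of the KO-only domains 29.6% overlapped KO H3K4me3 (27.9 to 31.4%), and of the WT-only domains 13.4% overlapped WT H3K4me3 (12.1 to 14.7%). Among one to one pairs 52.6% of the domains did so in either genotype. Domains of 5 to 10 kb alone had the same order, with 30.2% of KO-only domains, 13.6% of WT-only domains, and 37.4% of KO and 39.2% of WT domains in one to one pairs. The other antibodies, each read from the list of the same genotype, were also higher in KO-only domains. H4K20me3 overlapped 12.1% of KO-only and 3.65% of WT-only domains, H3K9me3 8.66% and 5.46%, and MINA 10.6% and 7.15%. In one to one pairs H4K20me3 was higher in KO as well, with 17.1% of KO and 7.04% of WT domains.

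The covered length that the lists did not share, 44.2 Mb in KO and 43.2 Mb in WT, was divided by its place. Unmatched domains held 18.5 Mb of it in KO and 17.8 Mb in WT. Breaks, that is, gaps of the other genotype wholly inside a domain, held 4.69 Mb in KO and 5.45 Mb in WT. The rest, 20.9 Mb in KO and 19.9 Mb in WT, lay at edges. Edges thus held 47.4% of the KO part and 46.1% of the WT part, and breaks, for all their number, 10.6% of the KO part and 12.6% of the WT part.

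Edges were compared in the one to one pairs. A shift is outward where the KO domain reached past the WT edge and inward where it stopped short of it. Of 17226 edges 46.2% were outward in KO, 40.5% inward and 13.3% at the same 200-bp window. The median size of a shift was 800 bp, and 60.2% of the edges lay within 1 kb of each other. Left and right edges, which carry no strand, were alike, with 46.8% and 45.7% outward. In 2069 pairs both edges were outward, in 1688 both were inward, and in 2767 one edge was outward and the other inward. The median KO over WT width of a pair was 1.007. By 1.5-fold or more 797 KO domains were wider, which is 9.25% of the pairs, and 956 were narrower, 11.1%. Identical positions of both edges were found in 196 pairs.

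The largest outward shift was on chromosome 20, where a WT domain of 12.2 kb from 56224401 to 56236600 stood beside a KO domain of 68.0 kb that ended 53.4 kb further right. On chromosome 6 the WT domain from 35228001 to 35269000 lay in a KO domain that began 42.2 kb further left. The other 3 of the 5 largest outward shifts, of 30.0 to 34.0 kb, were on chromosomes 7, 5 and 1. The largest inward shift lay on chromosome 6 as well, close to that domain, where the KO domain began 59.4 kb inside the left edge of a WT domain that ran from 34979201 to 35061800. In the WT domain from 136915601 to 136967000 on the same chromosome the KO domain stopped 40.4 kb short on the right and was 4.8 kb wide, against 51.4 kb in WT. The remaining 3 inward shifts, of 31.6 to 39.6 kb, were on chromosomes 2, 20 and 8.

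Edges with H3K4me3 (a WT H3K4me3 interval within 2 kb of the WT edge) were set beside edges without. With H3K4me3, 49.7% of 6330 edges were outward in KO and 36.6% inward, and 68.9% lay within 1 kb of the WT edge. Without it, 44.2% of 10896 edges were outward and 42.7% inward, and 55.1% lay within 1 kb. Shifts over 5 kb were found at 2.81% of edges with H3K4me3 and at 9.05% of those without. Edges that carried the promoter mark thus lay closer to each other in KO and WT than edges that did not. Pairs with H3K4me3 at both ends were wider in KO in 59.1% of cases (56.6 to 61.6%), and pairs with it at neither end in 44.6% (43.0 to 46.2%). These classes also differed in width, as given below. Where H3K4me3 lay at one end, that end was outward in 47.9% and inward in 40.0%, and the other end was outward in 51.3% and inward in 34.9%. Outside the stretches described next, 45.6% of H3K4me3 edges with WT MINA and 45.9% of those without it were outward, and 39.4% of those with MINA and 41.6% of those without it were inward. H3K4me3 edges with MINA were closer in KO and WT, with 71.7% within 1 kb, against 62.8% of those without it.

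Earlier analysis of these lists had shown long stretches of chromosomes in which the KO over WT ratio of several marks was higher than elsewhere. They were cut here again from H3K4me3 alone, as the upper of 2 states of its KO over WT length ratio in bins of 2 Mb, and are called raised stretches. There were 11 on 8 chromosomes, over 681.6 Mb or 22.5% of the span. H3K36me3 took no part in the cut. The near balance of the whole lists was the sum of opposite values inside and outside these stretches. Inside, KO domains covered 71.6 Mb and WT domains 56.0 Mb, a ratio of 1.28. Outside, KO domains covered 257.3 Mb and WT domains 271.9 Mb, a ratio of 0.946. Domains of at least 50 kb numbered 295 in KO and 200 in WT inside and 1013 in KO and 1110 in WT outside.

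Edges, pairs, splits, joins and unmatched domains also differed between the inside and the outside of the stretches, whereas the lower quartile of width was smaller in KO on both sides, at 5.6 kb in KO and 5.8 kb in WT inside and 6.0 kb in KO and 6.2 kb in WT outside. Inside, 65.0% of the edges were outward in KO and 23.7% inward, and the median KO over WT width of a pair was 1.11, with 74.2% of pairs wider in KO (72.0 to 76.3%). Outside, 42.0% of edges were outward and 44.3% inward, and 45.9% of pairs were wider in KO (44.7 to 47.1%). Splits numbered 154 and joins 442 inside, against 1297 splits and 909 joins outside. Inside, KO-only domains numbered 1229 (31.5% of the KO domains there) and WT-only domains 154 (4.65% of the WT domains). Outside, 1357 were KO-only (9.76%) and 2391 WT-only (16.8%). The difference in H3K4me3 between unmatched domains was there on both sides: 25.7% of KO-only and 6.49% of WT-only domains overlapped the H3K4me3 list of their own genotype inside the stretches, and 33.2% of KO-only and 13.8% of WT-only domains did outside. The stretches held 47.5% of all KO-only domains, 32.7% of joins, 10.6% of splits and 6.05% of all WT-only domains, beside 18.5% of one to one pairs. The covered length of H3K4me3, which defined the stretches, moved with these values, and its part in them was not tested.

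Each of the 11 stretches showed the same signs: outward edges outnumbered inward ones, joins outnumbered splits and KO-only domains outnumbered WT-only ones. The smallest surplus of outward over inward edges was 28.8 percentage points, on chromosome 7 from 124000001 to the end. The largest was 73.3 points on chromosome X from 52000001 to 66000000, which rests on 15 pairs. Chromosome 15, raised over its whole length, had 69.3% outward and 20.7% inward edges over 241 pairs, and 102 joins against 16 splits. Of its 735 KO domains 310 were KO-only, and of its 594 WT domains 22 were WT-only. On chromosome 9 from 34000001 to the end there were 73 joins and 23 splits, and 11 domains were found in WT alone.

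Outside the stretches the chromosomes were not uniform. Inward edges outnumbered outward ones on 16 of 22 chromosomes and outward ones were more on 6. The rest of chromosome 9 was lowest, at -32.5 points over 40 pairs, and the rest of chromosome 7 followed at -23.2 points over 84 pairs. Of the chromosomes that hold no raised stretch, 3, 12, 10 and 11 were lowest, at -11.2, -10.1, -8.86 and -8.35 points. The highest values were 21.2 points on chromosome 20, 15 on chromosome 19, 14.6 on chromosome 16 and 10.1 on chromosome 22. On chromosomes 20, 19, 16 and 22 joins also outnumbered splits, with 36 and 21, 64 and 37, 68 and 40, and 32 and 13. Domains found in KO alone outnumbered those in WT alone there too, by 69 to 65 on chromosome 16 and by wider margins on chromosomes 20, 19 and 22. Chromosome 13 (9.28 points) and the rest of chromosome X (1.02 points) had an outward surplus as well but went the other way in these counts. Chromosome 13 had 37 joins and 51 splits, and 76 KO-only and 122 WT-only domains. The rest of chromosome X had 17 joins and 25 splits, and 42 KO-only and 64 WT-only domains.

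**Figure D4:**
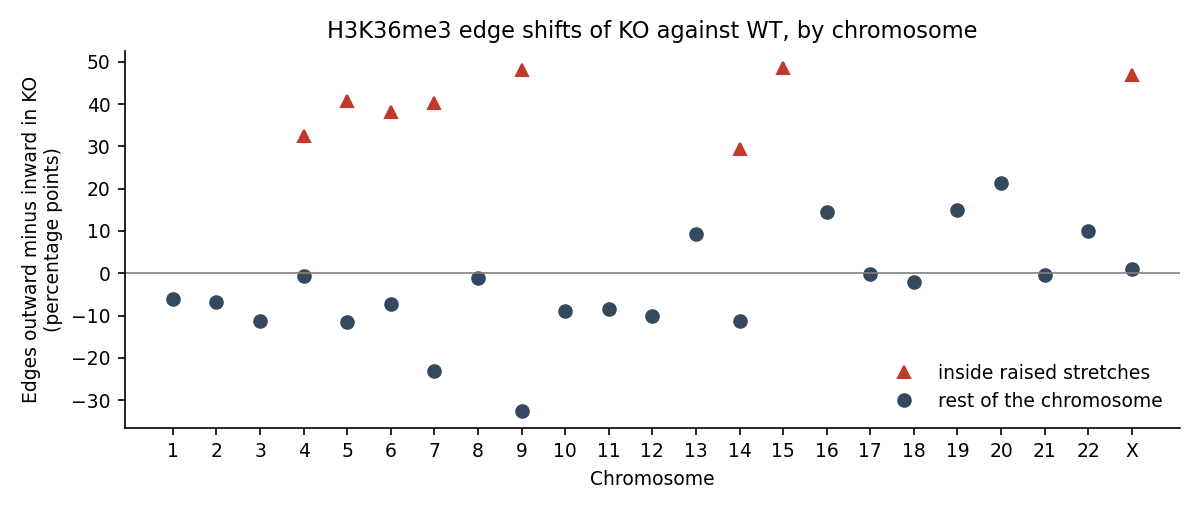
Surplus of outward over inward edges of KO domains against their one to one WT partners (percentage points, y axis) for each chromosome, inside raised stretches (red triangles) and in the rest of the chromosome (dark circles). Points above 0 mean that more KO edges lay outside the WT edge than inside it. All 8 triangles lie above 29 points, and 16 of the 22 circles lie below 0.

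Over all one to one pairs, the difference between edges with and without H3K4me3 was present on both sides of that division. Inside, 70.1% of H3K4me3 edges were outward and 20.2% inward, against 62.4% outward and 25.5% inward for edges without. Outside, H3K4me3 edges were outward in 45.6% and inward in 39.9%, whereas edges without it were outward in 39.8% and inward in 46.9%. In the rest of the genome the surplus was therefore 5.78 points outward at H3K4me3 edges and 7.12 points inward at the others (-7.12 as outward minus inward). Pairs with H3K4me3 at one end differed from that picture on both sides. Inside the stretches their H3K4me3 end had 45.9 points and their other end 55.4 points. In the rest of the genome their H3K4me3 end had -0.391 points and their other end 7.94 points. Domains with the promoter mark at neither end were the ones with an inward surplus there: of their 5956 edges 36.5% were outward and 50.7% inward, or -14.2 points. Domains with the mark at both ends had 12.8 points in the same part of the genome. These classes also differed in width. Over the whole genome the median WT width was 9.4 kb with the mark at neither end, 17.2 kb at one and 13.4 kb at both. Over all pairs the surplus also went with mean width. It was -3.91 points under 5 kb, 18.4 points at 50 to 100 kb and 12.1 points at 100 kb or more. The part of width in the differences by H3K4me3 was not tested.

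Edges of domains at least 20 kb wide were also used as fixed points, and the list of the other genotype was read around them. Outside the stretches, KO domains covered 86.6% of the points 4 kb inside WT edges without H3K4me3, and WT domains covered 92.3% of such points inside KO edges. At edges with H3K4me3 both were close, 95.4% for KO domains inside WT edges and 95.5% for WT domains inside KO edges. Inside the stretches KO domains covered 97.0% of the points 4 kb within WT edges without H3K4me3, and WT domains covered 75.3% within KO edges. With H3K4me3 these were 97.7% for KO domains and 84.0% for WT domains. At 4 kb the KO and WT shares thus lay further apart without H3K4me3 than with it in the stretches. The order depended on the distance, and at the edge itself the shares lay further apart with H3K4me3. There KO domains covered 80.0% of WT edges with H3K4me3 and WT domains 26.2% of such KO edges. Without H3K4me3 these were 82.5% for KO domains and 34.3% for WT domains. At 4 kb outside WT edges with H3K4me3 KO domains covered 32.2% in the stretches and 28.6% in the rest.

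**Figure D5:**
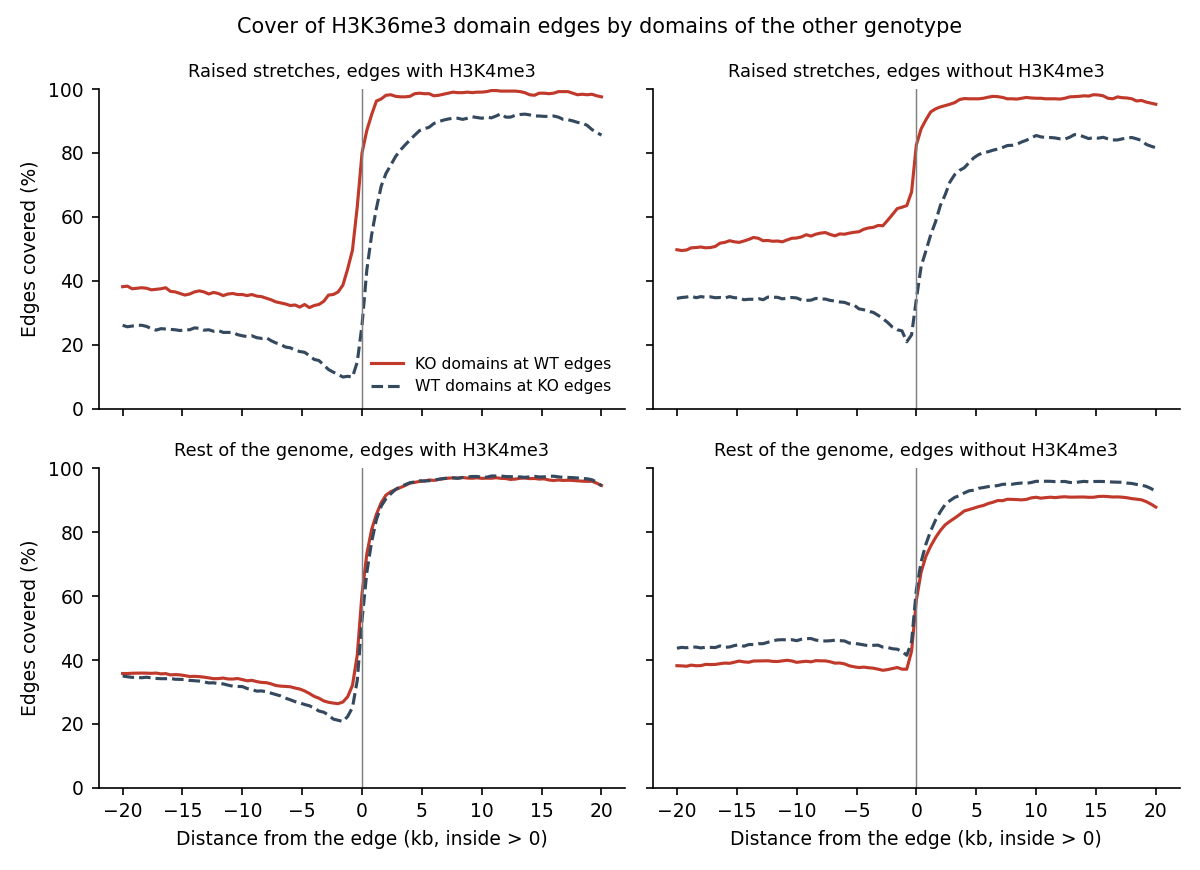
Share of H3K36me3 domain edges (%, y axis) at which the other genotype has a domain, by distance from the edge in kb (positive inside the domain), for domains of at least 20 kb. Solid red lines show KO domains at WT edges, and dashed dark lines show WT domains at KO edges. In raised stretches (top) the KO line lies above the WT line throughout, and in the rest of the genome (bottom) the lines nearly meet inside edges with H3K4me3 while the KO line lies below the WT line on either side of edges without it.

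Gaps gave the view from outside the domains. Of the KO gaps under 5 kb 39.3% lay wholly inside a WT domain (38.2 to 40.4%), and of the WT gaps under 5 kb 37.2% lay wholly inside a KO domain (36.1 to 38.3%). The share depended on length. At exactly 800 bp it was 58.4% of KO gaps and 57.5% of WT gaps, from 2 to 5 kb 19.0% of KO gaps and 16.0% of WT gaps, and from 5 to 20 kb 5.14% of KO gaps and 4.40% of WT gaps. Most of the shortest gaps of either list were therefore absent from the other. Inside the raised stretches WT domains spanned 21.6% of KO gaps under 5 kb, while KO domains spanned 58.6% of WT gaps. Outside them WT domains spanned 44.4% of KO gaps under 5 kb, and KO domains spanned 32.3% of WT gaps.

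Of all gaps under 5 kb 17.7% of those in KO overlapped KO H3K4me3 and 18.1% of those in WT overlapped WT H3K4me3. Short gaps that one genotype spanned had lower shares. Of the 2832 KO gaps under 5 kb that lay inside a WT domain 9.75% (8.71 to 10.9%) overlapped KO H3K4me3. Of the 2607 WT gaps inside a KO domain 14.7% overlapped KO H3K4me3. Read from the WT H3K4me3 list the shares were 11.2% of the KO gaps and 15.7% of the WT gaps. Both kinds of gap had a median of 1.0 kb. Short gaps with no domain of the other genotype in them, but with one over the domain on either side, overlapped the H3K4me3 of their own genotype in 28.2% of cases in KO and 18.4% in WT. Where such a domain was missing on one or both sides the shares were 14.4% in KO and 4.55% in WT, so spanned WT gaps were not the lowest class. Gaps that the other list covered in part were longer, with medians of 2.2 kb in KO and 2.0 kb in WT. Their shares were 24.0% in KO and 28.9% in WT. In the rest of the genome alone 9.91% of the spanned KO gaps overlapped KO H3K4me3 and 15.7% of the spanned WT gaps did. In the raised stretches it was 8.60% of the spanned KO gaps and 12.2% of the spanned WT gaps. The widest KO gap inside a WT domain was 50.4 kb, on chromosome 7 from 18635801 to 18686200 within a WT domain of 89.8 kb, and it lay in a raised stretch, against the sign of most measures there. The next KO gaps were 34.0 kb wide on chromosome 8, between 32418001 and 32452000, and 25 kb wide on chromosome 10, between 13856401 and 13881400. The widest WT gap inside a KO domain was 28.2 kb, on chromosome 15 from 41072601 to 41100800. The next lay on chromosome 5, with 27.4 kb from 153721801 to 153749200, and on chromosome 17, with 27.2 kb from 55969201 to 55996400. Those on chromosomes 15 and 5 were in raised stretches.

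Set beside the other antibodies of the series, H3K36me3 had the largest share of covered length in common between KO and WT. Its Jaccard index, the shared length over the length covered in either list, was 0.765, against 0.720 for H3K4me3, 0.384 for H3K9me3, 0.208 for MINA and 0.165 for H4K20me3. It was also the antibody with the largest share of WT domains split in KO, 8.29%, against 1.57% to 4.54% for the others, whose WT domains were narrower (medians of 4.0 to 6.0 kb, against 11.4 kb). It was the only one of the 5 with more outward than inward edges in its one to one pairs, although outside the raised stretches its inward edges were more. For H3K4me3 27.5% of edges were outward and 56.9% inward. These orders are descriptions of 1 library a side.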

How the data were processed

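ChIP-seq intervals of 10 libraries of MDA-MB-231 cells were used. Per the submitters' processing notes, reads were aligned with BWA to hg19 and enriched intervals were called with SICER version 1.1. Of their settings, the read depth and the use of input DNA nothing is stated in the sources used here. The deposited intervals have a chromosome, start and end on a 200-bp grid, and no score or height. Positions are 1-based.

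The lists were compared with Python 3.11.15 and numpy 2.4.6. Overlap meant at least 1 bp. Raised stretches came from a hidden Markov model of the H3K4me3 log2 ratio (computed here from the deposited intervals, 1 kb added to each length) in bins of 2 Mb, and the probability of switching state between bins was 0.001. Bins under 20 kb took their neighbours' state, and bins under 100 kb counted by their length. The counting was tested on simulated lists with known changes. The model was run on simulated lists in which only whole chromosomes were raised, so its placing of stretch ends within a chromosome was not tested. Wilson intervals are at the 95% level.

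The domains, lists and measures were chosen with earlier results of these data known. Named regions are the widest 3 domains of each list, the 5 most divided of each kind, the 5 largest shifts each way and the 3 widest spanned gaps of each list. Genes and sequences were not analysed here, for want of an hg19 genome and annotation. Alternatives were merging of domains within 2, 5 or 10 kb, autosomes only, domains of at least 2 kb, an overlap of 50% of the shorter domain, other H3K4me3 lists or distances at edges, and leaving out the raised stretches, also as cut from bins of 1 or 5 Mb. The last 2 cuts were chosen after seeing the data.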

Additional observations from a re-analysis of the deposited data

How the results depend on the processing

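No paired analysis was possible because each genotype has 1 library per antibody. Of 112 values from 13 alternatives 70 stayed within the tolerance, which was 1.5-fold for counts and counting error for ratios and surpluses. Ratios and surpluses among these also kept their direction. Another 28 moved beyond the tolerance, and 14, all of them ratios or surpluses, changed direction. A single count has no direction, so a change in which genotype had the larger count is not among the 14. Without the raised stretches the KO over WT ratios turned to 0.946 for covered length and 0.979 for domain number, 0.945 and 0.978 with stretches from 1-Mb bins, and 0.952 and 0.981 from 5-Mb bins. The covered length was also just below 1 on autosomes alone, at 0.999981. The surplus of outward edges turned to -2.26 points without the stretches, -2.28 with 1-Mb and -0.898 with 5-Mb bins. At edges without H3K4me3 it turned to -7.11, -7.13 and -5.96 points, and to -0.995 with H3K4me3 sought within 5 kb. At edges with H3K4me3 it was 5.78, 5.79 and 7.39 points. KO-only domains numbered 1357, 1346 and 1411 there, fewer than the WT-only domains, which stayed within the tolerance at 2391, 2393 and 2406. Merging within 2, 5 and 10 kb left 873, 662 and 495 splits, 800, 597 and 413 joins, 1294, 888 and 632 KO gaps inside WT domains, and 1126, 781 and 515 WT gaps inside KO domains, so splits exceeded joins in each. It gave surpluses of 7.97, 9.34 and 11.3 points over all edges, and of 4.59, 6.49 and 9.31 at edges without H3K4me3. After merging within 5 and 10 kb 1339 and 1006 KO-only and 1342 and 987 WT-only domains were left. Fewer short gaps exist after merging by construction. For the other values that moved the cause was not tested. Depth is unknown, and 1 library a side gives no replicate error for any of these values.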
